A study of Homo sapiens with 6 samples.

Results

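Interferon-stimulated and RNA-sensing genes were followed in UM-SCC1 cells, an established line of human head and neck squamous cell carcinoma, after transfection of synthetic double-stranded RNA. The genes were taken by symbol from a list of 59 known genes of this kind, and all 59 were found among the 14959 genes of the table. No rule on measured values was used, but the list was chosen with earlier results of these data known. In one group of 3 libraries the cells had received miR-204-5p mimics, and in the other group of 3 libraries control mimics, that is, control oligonucleotides of the same format. RNA was collected 48 h after transfection in 3 independent experiments per group, and both groups share the line, the lipid reagent and the exposure to a short RNA duplex. No library of untransfected cells belongs to the comparison, so the values compare one transfected RNA with another and do not measure a response to transfection itself. The line is a single cancer cell line. Markers of squamous epithelium were present in every library, with a mean over the 6 libraries of 152 FPKM (fragments scaled to the length of the transcript and to the size of the library) for KRT5, 100.1 FPKM for KRT14 and 41.6 FPKM for TP63. All 6 epithelial markers differed between the groups by the test used below: KRT5, KRT14, TP63 and EPCAM were lower with miR-204-5p mimics while KRT6A and CDH1 were higher, with log2 differences from −1.01 (TP63) to 0.81 (KRT6A). The leukocyte and endothelial markers PTPRC, CD3E, PECAM1, VWF and CDH5 were below 0.4 FPKM on average, whereas CD14, at 14.3 FPKM, and LYZ, at 4.14 FPKM, were not. Among the fibroblast markers COL1A1 stood at 8.91 FPKM and COL1A2 and PDGFRB below 0.5 FPKM. Of these markers of other cell types, COL1A2, PDGFRB and VWF were higher and CD14 was lower with miR-204-5p mimics (CD14 log2 difference −0.37, adjusted p = 0.00407). The part of these shifts in the results below was not tested.

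Cells recognize double-stranded RNA in the cytosol through the helicases RIG-I (DDX58) and MDA5 (IFIH1), which signal through the mitochondrial adaptor MAVS and the transcription factors IRF3 and IRF7 to induce interferons. Secreted type I interferon binds the receptor IFNAR1/IFNAR2, and a complex that includes STAT2 and IRF9 then binds the interferon-stimulated response element in the promoters of many genes. Their products block virus entry, translation, replication and budding, and some of them, such as the sensors themselves, reinforce the circuit. Epithelial cells keep a basal level of many of these mRNAs without infection.

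The RNA that distinguished the groups was miR-204-5p. Its mature sequence in RefSeq (GRCh38.p14, minus strand, chr9:70810031-70810052) is shown first, with the seed, bases 2 to 8, in capitals, because the seed decides which mRNAs the mimic can pair with.

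hsa-miR-204-5p: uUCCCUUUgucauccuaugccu

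A sequence that many of the 59 genes held, and that their selection did not use, was the core of the interferon-stimulated response element, searched as GAAANNGAAA on both strands from 250 bases before to 50 bases after the start site in RefSeq promoters (GRCh38.p14). Overlapping matches were counted as 1 promoter with the motif. Promoters were listed for 47 of the 59 genes (DDX58 under its RefSeq name RIGI), and 28 of these 47, or 59.6%, held the motif, against 3.57% of all 35116 promoters and 4.13% of the 11453 genes of the table with a listed promoter. Stretches around the motif are printed for 5 genes with a higher level after miR-204-5p mimics and for 6 with a lower level in at least one of the analyses below, with the motif in capitals and written along the gene. In the reverse orientation the motif reads TTTCNNTTTC.

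EPSTI1 (chr13:42992267-42992306, minus strand): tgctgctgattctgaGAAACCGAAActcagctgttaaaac
PLSCR1 (chr3:146544662-146544701, minus strand): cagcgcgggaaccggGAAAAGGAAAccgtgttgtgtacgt
IFIH1 (chr2:162318813-162318858, minus strand): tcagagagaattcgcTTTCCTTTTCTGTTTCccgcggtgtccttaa
IFITM3 (chr11:320871-320927, minus strand): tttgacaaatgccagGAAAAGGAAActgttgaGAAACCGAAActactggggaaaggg
DTX3L (chr3:122564317-122564356, plus strand): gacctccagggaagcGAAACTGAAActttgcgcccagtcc
ISG15 (chr1:1013369-1013414, plus strand): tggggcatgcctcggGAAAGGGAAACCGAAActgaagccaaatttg
IFI6 (chr1:27672324-27672363, minus strand): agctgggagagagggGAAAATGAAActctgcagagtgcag
RSAD2 (chr2:6877617-6877656, plus strand): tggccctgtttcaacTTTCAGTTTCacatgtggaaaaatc
HERC5 (chr4:88456979-88457024, plus strand): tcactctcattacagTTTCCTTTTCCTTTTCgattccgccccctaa
BST2 (chr19:17405730-17405775, minus strand): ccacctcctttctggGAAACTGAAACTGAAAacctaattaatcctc
GBP1 (chr1:89065311-89065350, minus strand): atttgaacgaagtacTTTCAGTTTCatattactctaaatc

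The motif was thus present in genes of both directions. Of the 6 genes printed as lower, only GBP1 passed as lower in the main comparison of all 6 libraries. In that comparison the motif was found in 7 of the 10 genes with a listed promoter that were higher with miR-204-5p mimics by limma's adjusted p-value under 0.05, in 1 of 6 that were lower, and in 20 of 31 that passed in neither direction. Without control mimics replicate 1 the numbers were 7 of 9, 10 of 16 and 11 of 22. The match in DTX3L is also a match in the listed promoter of PARP9, which is read from the same stretch in the opposite direction.

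All 59 genes had a value above 0 in each of the 6 libraries, and 56 had a mean of at least 1 FPKM. The median of their means was 12.2 FPKM, against 5.91 FPKM over all genes of the table. The table holds no read counts. From the smallest steps among genes with 1 annotated transcript, the depth was inferred as 13100000 to 15900000 fragments for miR-204-5p mimics and 13900000 to 16400000 for control mimics. A single fragment on 1 kb of transcript then equals 0.0610 to 0.0766 FPKM. If the FPKM refers to the transcript listed with each gene, the 3 genes with a mean below 1 FPKM (IFI44L, RSAD2 and CMPK2) rested on 2.68 to 11.2 fragments per library. For 11 of the 59 genes the 1 transcript given in the table is shorter than 50% of the longest one in GENCODE 29, and for DHX58, GBP2 and XAF1 it is annotated as a target of nonsense-mediated decay, and the table does not say whether the FPKM is that of the transcript or of the gene. In bulk libraries, fewer cells with an mRNA and less of it per cell cannot be told apart either.

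Before the groups are compared, the control libraries have to be described, because these genes set control replicates 1 and 2 apart. Control mimics replicate 1 had the lowest value of the 3 control libraries for 47 of the 59 genes (79.7%), while it was the lowest for 35.2% of all genes of the table. Control mimics replicate 2 had the highest value for 38 of the 59 genes (64.4%, against 34.3% of all genes). In log2(FPKM + 1) it lay above the mean of control replicates 1 and 3 by a median difference of 0.14, against 0.005 over all genes. No such order was seen with miR-204-5p mimics, since replicates 1, 2 and 3 were the lowest for 18, 20 and 21 genes. On the log2(FPKM + 1) scale, control replicate 1 lay below the mean of control replicates 2 and 3 by a median difference of −0.13 over the 59 genes, against −0.01 over all genes. A difference beyond 0.3 in the lower direction was found for 11 of the 56 genes with a mean of at least 1 FPKM (19.6%) and for 3.70% of all such genes, and in the higher direction for 0 of the 56 genes and 3.35% of all such genes.

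**Figure D1:**
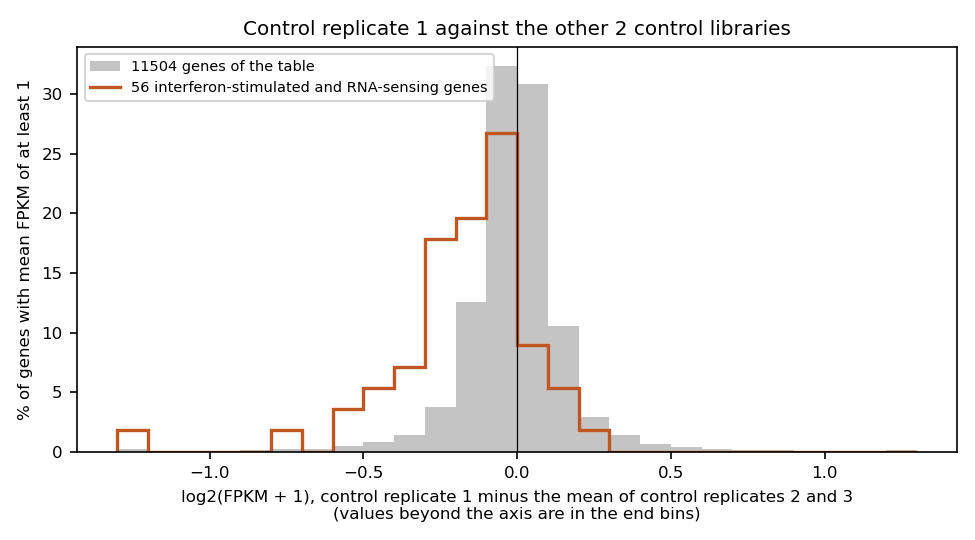
Histogram of the difference in log2(FPKM + 1) between control mimics replicate 1 and the mean of control replicates 2 and 3 (x axis), as % of genes per bin of 0.1 (y axis), for 11504 genes of the table (grey) and 56 interferon-stimulated and RNA-sensing genes (line) with a mean of at least 1 FPKM. The grey distribution is centred near 0, whereas the line lies mostly to its left, with 11 of 56 genes below -0.3 and 0 above 0.3.

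The 8 genes farthest below were, in this order, XAF1, OASL, MX2, IFI44, RSAD2, OAS2, IFIT1 and CMPK2, with differences from −1.25 to −0.41, and 5 of them are given by library here. XAF1, a proapoptotic partner of XIAP, had 2.42 FPKM in control replicate 1 and 7.41 and 6.93 FPKM in replicates 2 and 3. For OASL, an oligoadenylate synthetase-like protein that assists RIG-I, the values were 3.17, 6.69 and 5.51 FPKM. IFI44 had 10.7, 17.7 and 14.8 FPKM, RSAD2 (viperin, which makes a chain-terminating nucleotide) 0.519, 1.15 and 1.28 FPKM, and CMPK2, a mitochondrial nucleotide kinase encoded beside it, 0.209, 0.648 and 0.560 FPKM. In each of these 5 genes control replicate 1 was the lowest control library, while control replicates 2 and 3 lay closer to each other than to it. This follows in part from their choice by the same difference. In IFIT2 (10.2, 14.1 and 11.7 FPKM) and DDX58 (4.77, 6.65 and 5.34 FPKM) control replicate 3 lay closer to control replicate 1 than to control replicate 2. IFIH1 (5.45, 5.52 and 5.61 FPKM) and DTX3L (15.7, 15.7 and 15.1 FPKM) varied little among the controls. At the other end, control replicate 1 lay above the mean of control replicates 2 and 3 for SAMD9L (difference 0.22), IFNAR2 (0.14), USP18 (0.13) and PML (0.11). Of the 28 genes with the motif in the promoter, control replicate 1 was the lowest control for 24, with a median difference of −0.19, and of the 19 with a listed promoter without it for 14, with a median difference of −0.10. These are descriptions without a test. The spread over the 3 libraries was larger with control mimics than with miR-204-5p mimics for 38 of the 56 genes (67.9%), against 47.3% of all genes of that level. The inferred depths of control replicates 1, 2 and 3 were 14100000, 13900000 and 16400000 fragments. The counts below are therefore given with and without control replicate 1, as are the genes whose call or size depended on it. Counts without control replicate 2 are given too, but few single genes.

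**Figure D2:**
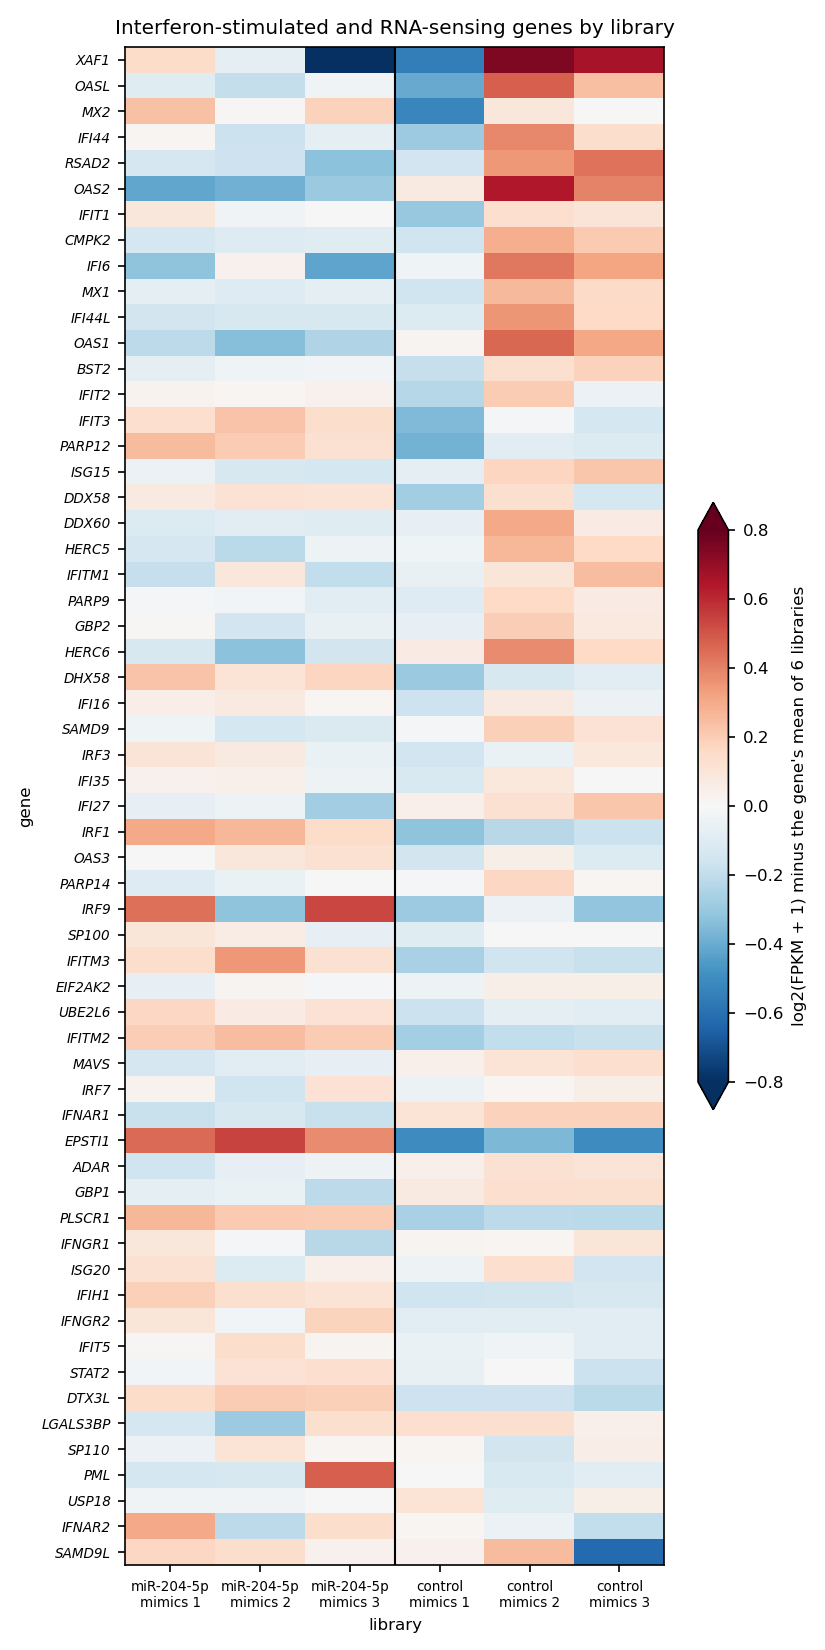
Each of the 59 genes (rows, ordered by the difference between control mimics replicate 1 and the other 2 control libraries) in each of the 6 libraries (columns), coloured by log2(FPKM + 1) minus the mean of the gene over the 6 libraries. In the upper rows control replicates 2 and 3 are mostly red and control replicate 1 is pale or blue, whereas EPSTI1, PLSCR1 and IFITM2 separate the groups in all 6 libraries.

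The groups were compared with limma on log2(FPKM + 1), and each log2 difference is the mean of the miR-204-5p mimics minus that of the control mimics on this scale, given with its standard error (SE). The added 1 makes the differences of genes with low FPKM smaller, so their sizes and ranks depend on it. With an adjusted p-value under 0.05, 12 of the 59 genes (20.3%) were higher after miR-204-5p mimics and 7 (11.9%) were lower. Over all genes of the table the same test called 23.9% higher and 16.8% lower, so neither share of the 59 genes was above that of the table. Without control mimics replicate 1, 11 genes (18.6%) were higher and 18 (30.5%) were lower, against 19.2% and 14.1% of the table. This library was singled out because it was low for these same genes. Leaving it out therefore raises most of their control means, and the larger share of lower genes is no independent result. That limit holds for all counts of the 59 genes without it. Without control mimics replicate 2, 13 genes were higher and 5 lower, beside 2926 and 2045 of all 14959 genes. All 7 lower genes and 11 of the 12 higher genes were called both with and without control replicate 1, and 11 further genes passed as lower once it was left out: OASL, ISG15, HERC5, IFI6, IFI44, IFI44L, MX1, RSAD2, CMPK2, BST2 and SAMD9. Of these 11, IFI6, HERC5, SAMD9, ISG15 and RSAD2 also passed as lower under 1 to 7 of the other 12 alternatives, and the other 6 under none of them. After scaling of the libraries to equal sums of FPKM, 11 genes were higher and 12 lower with all 6 libraries. Over all 14959 genes the same scaling gave 3080 higher and 2885 lower. All mimic libraries lay above all control libraries for 13 of the 59 genes, against 30.9% of the genes of the table. They lay below all of them for 12 of the 59 genes, against 22.7%. Both directions together made up 42.4% of the 59 genes and 53.6% of the table. The median log2 difference of the 59 genes was −0.01 with all libraries and −0.05 without control replicate 1, beside 0.03 for all genes in both cases. No permutation of 3 against 3 libraries can give a two-sided exact p below 0.1.

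**Figure D3:**
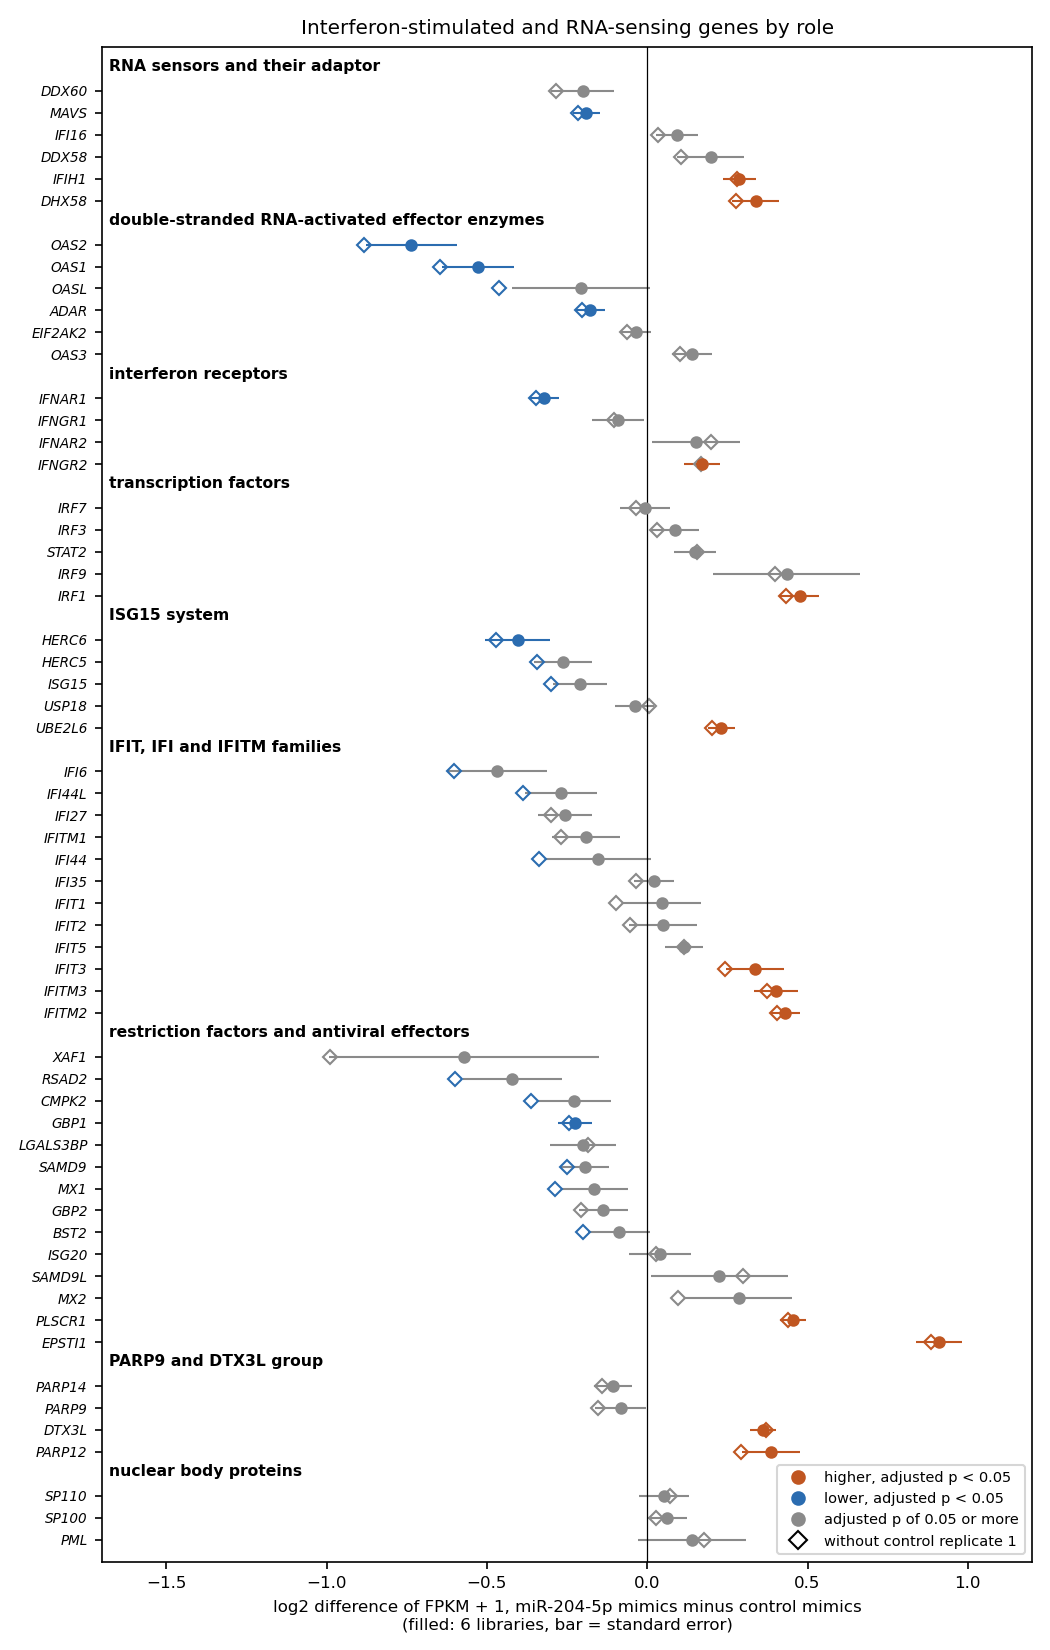
Log2 difference of FPKM + 1, miR-204-5p mimics minus control mimics (x axis), for the 59 genes (y axis) by role, with filled points and SE bars for all 6 libraries and open diamonds without control mimics replicate 1. Colour gives limma's call at an adjusted p of 0.05 (orange higher, blue lower, grey neither), and 11 diamonds are blue beside a grey point, all to the left of it.

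Among the sensors of RNA and their adaptor, miR-204-5p mimics gave 2 higher genes and 1 lower gene of 6, and the same 3 calls were made without control replicate 1. Counts by role, here and below, rest on few genes and stand beside 23.9% higher and 16.8% lower genes over the table. IFIH1, the sensor of long double-stranded RNA on chromosome 2, had 7.23, 6.90 and 6.79 FPKM in replicates 1, 2 and 3 with miR-204-5p mimics and 5.45, 5.52 and 5.61 FPKM with control mimics. Every mimic library lay above every control library (6.97 ± 0.226 and 5.53 ± 0.0794 FPKM, SD, n = 3). Its log2 difference was 0.29 (SE 0.0511, adjusted p = 0.00530). DHX58, also named LGP2, a helicase that modulates both other sensors, had 8.11, 7.36 and 7.72 FPKM against 5.33, 6.10 and 6.32 FPKM. The groups did not overlap, and the log2 difference was 0.34 (SE 0.0735, adjusted p = 0.0113). Their common adaptor moved the other way. MAVS, on chromosome 20 and the most abundant of the 6, had 19.4, 20.1 and 20.4 FPKM with miR-204-5p mimics and 22.1, 23.2 and 23.6 FPKM with control mimics (19.99 ± 0.490 and 22.9 ± 0.797 FPKM, SD, n = 3). It was lower in all mimic libraries, with a log2 difference of −0.19 (SE 0.0428, adjusted p = 0.0130). DDX58 itself, the sensor of short and 5′-triphosphate RNA, did not pass the threshold (6.498 ± 0.117 and 5.58 ± 0.965 FPKM, log2 difference 0.20, adjusted p = 0.186, and 0.11 without control replicate 1, adjusted p = 0.436), nor did DDX60, a cofactor of RIG-I and the least abundant of the 6 (4.99, 5.08 and 5.05 FPKM against 5.18, 7.003 and 5.78 FPKM, log2 difference −0.20, adjusted p = 0.151), or IFI16, a sensor of DNA (0.09, adjusted p = 0.304).

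The enzymes that double-stranded RNA switches on, or that edit it, were grouped with the synthetase-like protein OASL. This group gave 3 lower and 0 higher genes of 6, against 16.8% and 23.9% of the table. OAS1, OAS3 and OAS2 are neighbours on the plus strand of chromosome 12 (hg38, from 112906777 to 112919903, from 112938352 to 112973249 and from 112978395 to 113011723) and make the oligoadenylates that activate RNase L. OAS2 had 2.94, 3.02 and 3.28 FPKM with miR-204-5p mimics and 4.53, 7.19 and 5.92 FPKM with control mimics. The groups did not overlap, and control replicate 1 was the control library closest to the mimics. The log2 difference was −0.74 (SE 0.141, adjusted p = 0.00710), and −0.88 without control replicate 1 (adjusted p = 0.00274). OAS1 had 8.42, 7.58 and 8.21 FPKM against 10.1, 13.9 and 12.5 FPKM. Again no mimic library reached a control library, with a log2 difference of −0.53 (SE 0.112, adjusted p = 0.0107), and −0.65 without control replicate 1 (adjusted p = 0.00314). OAS3, which lies between them and was the most abundant of the 3 (26.5 ± 1.22 and 24.0 ± 1.81 FPKM, SD, n = 3), had a log2 difference of 0.14 (SE 0.0638, adjusted p = 0.129). Whether the 3 neighbours differed from each other in this was not tested. ADAR, which converts adenosine to inosine in double-stranded RNA, had 51.4, 54.9 and 55.7 FPKM against 59.1, 62.7 and 61.7 FPKM, all mimic values below all control values (log2 difference −0.18, SE 0.0447, adjusted p = 0.0199). The ADAR call was lost without control replicate 2 (adjusted p = 0.0686) or control replicate 3 (adjusted p = 0.0592). EIF2AK2, the kinase PKR that halts translation on binding double-stranded RNA, stayed between 15.5 and 16.8 FPKM in all libraries (log2 difference −0.03, SE 0.0464, adjusted p = 0.594). For OASL the log2 difference was −0.21 with all libraries (adjusted p = 0.484) and −0.46 without control replicate 1 (adjusted p = 0.02005).

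**Figure D4:**
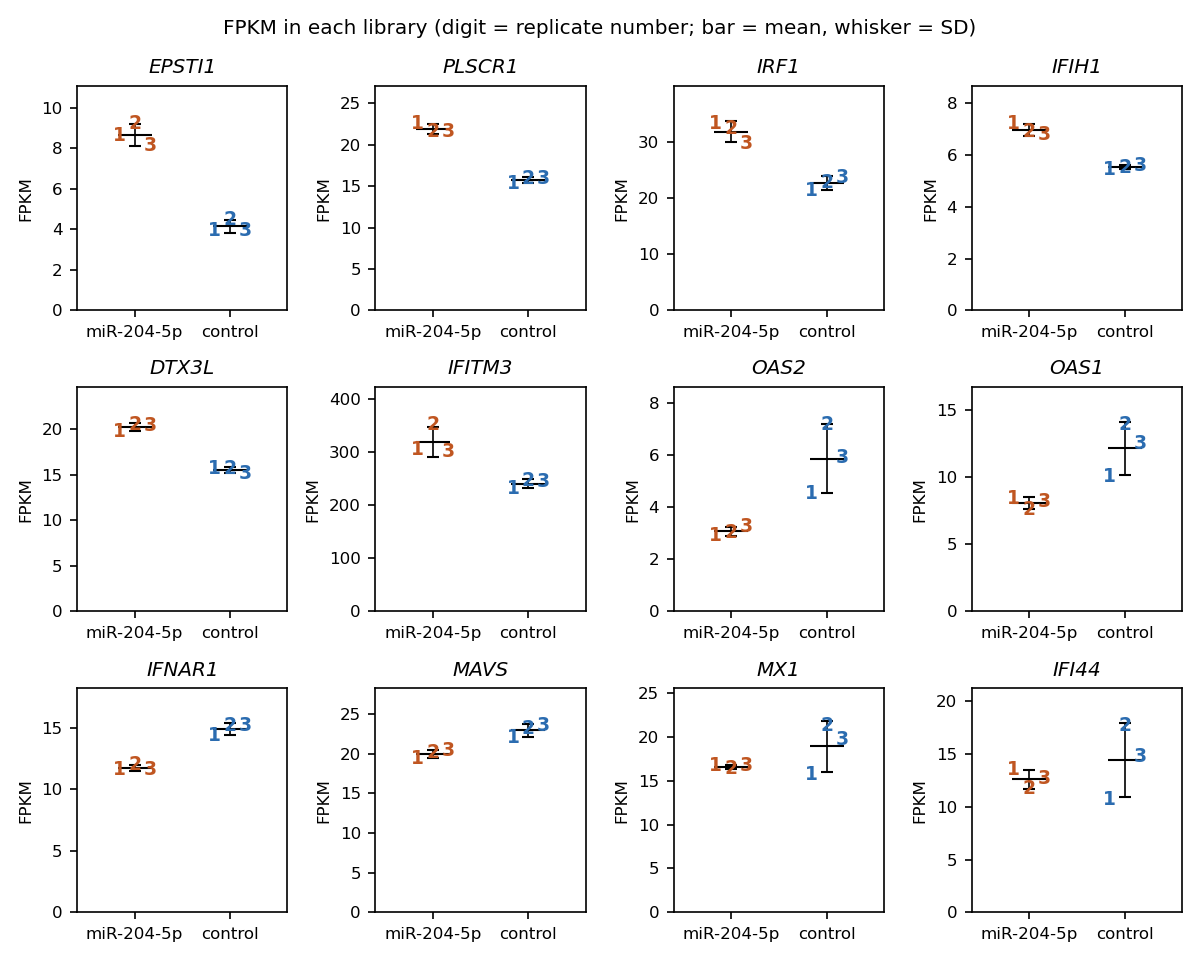
FPKM (y axis, from 0) in each library for 12 of the genes, with the replicate number printed at its value, the mean of each group as a bar and the SD as whiskers (n = 3). In the first 6 panels all libraries with miR-204-5p mimics lie above all control libraries, in OAS2, OAS1, IFNAR1 and MAVS they lie below, and in MX1 and IFI44 they lie above control replicate 1 and below control replicates 2 and 3.

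The receptor chains of type I and type II interferon were all expressed. IFNAR1, the signalling chain of the type I receptor on chromosome 21, had 11.6, 12.0 and 11.6 FPKM with miR-204-5p mimics and 14.3, 15.2 and 15.1 FPKM with control mimics. The groups were well apart (11.7 ± 0.247 and 14.9 ± 0.472 FPKM, SD, n = 3). IFNAR1 fell by 0.32 on the log2 scale (SE 0.0442, adjusted p = 0.00190), and the call was kept under all 13 alternatives. Its partner IFNAR2, the least abundant receptor chain, whose listed transcript shares 85.9% of its bases with AP000295.1, had 8.30, 5.52 and 7.31 FPKM against 6.63, 6.31 and 5.57 FPKM, with overlap between groups (log2 difference 0.15, adjusted p = 0.414). IFNGR1, which binds type II interferon, had 32.9, 30.5 and 26.3 FPKM against 31.3, 31.1 and 33.0 FPKM (log2 difference −0.09, adjusted p = 0.406). IFNGR2, its partner, had 22.4, 20.5 and 23.7 FPKM against 19.5, 19.6 and 19.6 FPKM, a log2 difference of 0.17 (SE 0.0562, adjusted p = 0.0490), and this call was kept under only 3 of 13 alternatives, with an adjusted p-value up to 0.123. IFNGR2 shares 199 bases of its listed transcript with TMEM50B on the other strand, which was also higher.

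Of the 5 transcription factors only IRF1 passed the threshold. IRF1 activates interferon and antigen presentation genes and is itself induced by type II interferon. It had 33.3, 32.4 and 29.8 FPKM with miR-204-5p mimics and 21.3, 22.9 and 23.7 FPKM with control mimics (31.8 ± 1.85 and 22.6 ± 1.24 FPKM, SD, n = 3). No library overlapped between groups, with a log2 difference of 0.48 (SE 0.0600, adjusted p = 0.00134) and of 0.43 without control replicate 1 (adjusted p = 0.00540). The listed transcript shares 227 bases with AC116366.3 on the opposite strand, and the strand setting of the counting is not given in the sources used here. AC116366.3 had a log2 difference of 1.40, which did not pass the threshold (adjusted p = 0.0843). Its part in the IRF1 value was not tested. IRF3 and IRF7, which act directly downstream of MAVS, had log2 differences of 0.09 and −0.01 (adjusted p = 0.393 and 0.947). STAT2 stood at 17.1 ± 1.03 and 15.3 ± 0.985 FPKM (log2 difference 0.15, adjusted p = 0.114). IRF9, the DNA-binding partner of STAT2 and the least abundant of the 5, had 6.34, 3.32 and 6.85 FPKM against 3.43, 4.24 and 3.35 FPKM, so that mimic replicate 2 lay among the controls (log2 difference 0.43, adjusted p = 0.179). All 1838 bases of its listed transcript are shared with AL136295.5 on the same strand, which makes its value uncertain.

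ISG15 is a ubiquitin-like protein that is attached to newly made proteins by the conjugating enzyme UBE2L6 and the ligase HERC5 and removed by USP18. UBE2L6 was the most abundant gene of this system, with 235, 220 and 227 FPKM with miR-204-5p mimics and 186, 198 and 197 FPKM with control mimics. All mimic values lay above all control values (log2 difference 0.23, SE 0.0429, adjusted p = 0.00615). HERC6, a paralog of HERC5 and the least abundant of the system, had 4.36, 3.66 and 4.28 FPKM against 5.13, 6.62 and 5.53 FPKM. It was lower (log2 difference −0.40, SE 0.102, adjusted p = 0.0199), a call that was lost with the replicate number as a block (adjusted p = 0.0608) and without mimic replicate 2 (adjusted p = 0.0633). ISG15 itself had 15.99, 15.1 and 14.9 FPKM against 15.6, 18.7 and 19.5 FPKM. Control replicate 1 lay among the mimic libraries, and the log2 difference of −0.21 (adjusted p = 0.0938) became −0.30 without it (adjusted p = 0.0109). In HERC5 control replicate 1, at 8.12 FPKM, lay just above the highest mimic library, at 8.08 FPKM, and the log2 differences were −0.26 (adjusted p = 0.0585) and −0.34 without that library (adjusted p = 0.0217). USP18, which also restrains signalling at IFNAR2, had 13.3 ± 0.146 and 13.7 ± 1.06 FPKM (SD, n = 3; log2 difference −0.04, adjusted p = 0.652).

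The IFITM proteins hold back virus fusion at membranes, and their genes form a cluster on chromosome 11. IFITM3, the most abundant of all 59 genes, had 304, 352 and 300.2 FPKM with miR-204-5p mimics and 231, 247 and 244 FPKM with control mimics. The groups did not overlap (319 ± 28.5 and 240.4 ± 8.66 FPKM, SD, n = 3), with a log2 difference of 0.40 (SE 0.0684, adjusted p = 0.00444). IFITM2 had 14.96, 15.5 and 14.96 FPKM against 10.5, 11.1 and 11.3 FPKM, a log2 difference of 0.43 (SE 0.0455, adjusted p = 0.000683). IFITM1 did not pass (59.1 ± 6.99 and 67.6 ± 7.32 FPKM, log2 difference −0.19, adjusted p = 0.198). The 3 genes are close paralogs and share reads, and 351 bases of the IFITM1 transcript overlap annotated exons of IFITM2, so the split between them is uncertain.

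Of the 4 IFIT genes on chromosome 10, whose proteins bind foreign RNA ends, 1 was higher. IFIT3 had 16.6, 17.8 and 16.7 FPKM against 11.5, 14.9 and 13.6 FPKM (log2 difference 0.34, SE 0.0900, adjusted p = 0.0249), and this call was lost without any one of the mimic libraries or without control replicate 3 (adjusted p from 0.0552 to 0.0809). For its binding partners IFIT1 and IFIT2 the log2 differences were 0.04 and 0.05 with all libraries and −0.10 and −0.05 without control replicate 1, none of them past the threshold. IFIT5 had 6.13 ± 0.356 and 5.58 ± 0.133 FPKM (log2 difference 0.11, adjusted p = 0.170).

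None of the 5 IFI genes passed with all libraries, and IFI6, IFI44 and IFI44L were lower without control replicate 1. IFI6, a mitochondrial and endoplasmic reticulum protein that protects from apoptosis, had 34.0, 43.9 and 31.7 FPKM with miR-204-5p mimics and 41.7, 57.6 and 53.4 FPKM with control mimics. Mimic replicate 2 lay above control replicate 1, and the log2 difference of −0.47 (SE 0.156) missed the threshold (adjusted p = 0.0517), while −0.60 without control replicate 1 passed it (adjusted p = 0.0246), as did 7 of the other alternatives (adjusted p from 0.0250 to 0.0487). IFI44 had 13.5, 11.7 and 12.7 FPKM against 10.7, 17.7 and 14.8 FPKM, a log2 difference of −0.15 (adjusted p = 0.499) and of −0.34 without control replicate 1 (adjusted p = 0.0455). IFI44L, its paralog and the least abundant of the group, had 0.499, 0.522 and 0.523 FPKM against 0.541, 1.12 and 0.854 FPKM, where control replicate 1 was close to the mimic libraries (log2 difference −0.27, adjusted p = 0.103, and −0.39 without that library, adjusted p = 0.0130). IFI27 and IFI35 had log2 differences of −0.26 (adjusted p = 0.0509) and 0.02 (adjusted p = 0.813).

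Among 14 restriction factors and other antiviral effectors, 2 were higher and 1 was lower with all libraries, and 2 were higher and 6 lower without control replicate 1. The table's shares were 23.9% higher and 16.8% lower with all libraries, and 19.2% and 14.1% without control replicate 1. EPSTI1, named for its induction in epithelial cells by stroma and known as an interferon-stimulated gene, showed the largest change of the 59 genes that passed the threshold. The listed transcript lies on the minus strand of chromosome 13 (hg38, from 42886388 to 42992230). EPSTI1 had 8.62, 9.24 and 8.14 FPKM with miR-204-5p mimics and 3.97, 4.50 and 3.97 FPKM with control mimics (8.67 ± 0.549 and 4.15 ± 0.308 FPKM, SD, n = 3). The lowest mimic library stood well above the highest control library, and EPSTI1 rose by 0.91 on the log2 scale (SE 0.0713, adjusted p = 0.000239), with 0.86 to 1.05 under the 13 alternatives. PLSCR1, a phospholipid scramblase with antiviral activity, had 22.6, 21.6 and 21.6 FPKM against 15.4, 15.9 and 15.9 FPKM. It varied little within the groups, and its log2 difference was 0.45 (SE 0.0401, adjusted p = 0.000356). GBP1, a guanylate-binding GTPase induced mainly by type II interferon, had 20.8, 21.3 and 18.9 FPKM against 23.3, 24.3 and 24.2 FPKM. It was lower (log2 difference −0.23, SE 0.0531, adjusted p = 0.0155), except without control replicate 2 (adjusted p = 0.0526).

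MX1, a GTPase that traps viral nucleocapsids, had 16.7, 16.3 and 16.7 FPKM with miR-204-5p mimics and 15.7, 21.3 and 19.7 FPKM with control mimics. The mimic libraries were nearly alike, and the controls lay on either side of them (log2 difference −0.17, adjusted p = 0.256, and −0.29 without control replicate 1, adjusted p = 0.0118). The same pattern of values was found for BST2 (tetherin, which holds budding virions at the cell surface), with 21.6, 22.2 and 22.4 FPKM against 19.996, 25.1 and 26.0 FPKM (log2 difference −0.09, adjusted p = 0.503, and −0.20 without control replicate 1, adjusted p = 0.0217). RSAD2 had 0.534, 0.504 and 0.344 FPKM with miR-204-5p mimics, with a log2 difference of −0.42 (adjusted p = 0.0725) and of −0.60 without control replicate 1 (adjusted p = 0.00443). CMPK2, the least abundant of the 59 genes, had 0.224, 0.255 and 0.260 FPKM with miR-204-5p mimics, with −0.23 (adjusted p = 0.161) and −0.36 (adjusted p = 0.00512). For SAMD9, which restricts poxviruses, the log2 differences were −0.19 (adjusted p = 0.0799) and −0.25 (adjusted p = 0.0452). LGALS3BP, a secreted glycoprotein and the most abundant gene of this group, had 113, 102 and 137 FPKM against 137, 137 and 129 FPKM (log2 difference −0.20, adjusted p = 0.167). XAF1 spread from 1.63 to 4.54 FPKM with miR-204-5p mimics and from 2.42 to 7.41 FPKM with control mimics, and its log2 difference of −0.57 did not pass (SE 0.420, adjusted p = 0.325), nor did −0.99 without control replicate 1 (adjusted p = 0.0653). MX2, ISG20, SAMD9L and GBP2 had log2 differences from −0.14 to 0.29, and none passed the threshold in either analysis. That of MX2 went from 0.29 to 0.10 without control replicate 1.

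DTX3L is a ubiquitin ligase that works as a heterodimer with the ADP-ribosyltransferase PARP9, and the 2 genes diverge from a common promoter on chromosome 3. DTX3L had 19.7, 20.5 and 20.4 FPKM with miR-204-5p mimics and 15.7, 15.7 and 15.1 FPKM with control mimics. The groups did not overlap, with a log2 difference of 0.36 (SE 0.0396, adjusted p = 0.000790). PARP9, the least abundant of its group, had 5.20, 5.16 and 4.89 FPKM against 4.84, 5.99 and 5.54 FPKM, with overlap between groups and a log2 difference of −0.08 (SE 0.0792, adjusted p = 0.448). Whether the 2 partners differed in their change was not tested, and the listed transcript of PARP9 has 46.2% of the length of the longest one. PARP12, which responds to stress at the Golgi and in granules, had 8.67, 8.34 and 7.85 FPKM against 5.25, 6.64 and 6.52 FPKM (log2 difference 0.38, SE 0.0907, adjusted p = 0.0155), a call that was lost without mimic replicate 1 (adjusted p = 0.0521) or mimic replicate 2 (adjusted p = 0.0505). PARP14, the most abundant of this group, had 26.2, 27.2 and 28.1 FPKM against 27.8, 31.8 and 28.5 FPKM (log2 difference −0.11, adjusted p = 0.198). The proteins of nuclear bodies gave no call. SP100 had 10.9, 10.6 and 9.65 FPKM against 9.38, 10.2 and 10.2 FPKM, SP110 had 4.57, 5.22 and 4.83 FPKM against 4.82, 4.21 and 4.98 FPKM, and PML was set apart by 1 mimic library (6.10, 6.16 and 9.89 FPKM), with log2 differences of 0.06, 0.05 and 0.14.

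The genes around this circuit were read from 3 further lists, which were chosen with earlier results of these data known. Of 22 interferon genes, IFNE was the only one in the table, and IFNB1, the type III genes IFNL1, IFNL2 and IFNL3 and the others were not analysed here. IFNE, which is expressed by epithelia without infection, had 0.534 ± 0.193 FPKM with miR-204-5p mimics and 1.33 ± 0.123 FPKM with control mimics (SD, n = 3), a log2 difference of −0.61 (SE 0.0967, adjusted p = 0.00332). With 0.1 in place of the added 1, this difference was −1.21. CXCL10, a chemokine that interferon induces strongly and that was singled out after its values were seen, lay between 0.0605 and 0.243 FPKM in the 6 libraries.

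Among 36 further components of RNA sensing and interferon signalling in the table, 4 passed as higher after miR-204-5p mimics and 8 as lower, and without control replicate 1 it was 3 and 7. These are 11.1% and 22.2% of the list, against 23.9% and 16.8% of the table, and 8.33% and 19.4% without that library, against 19.2% and 14.1%. IFNLR1, the specific chain of the type III interferon receptor, was lower, at 2.89 ± 0.230 against 4.27 ± 0.259 FPKM (SD, n = 3; log2 difference −0.44, adjusted p = 0.00389). PRKRA, the protein activator of PKR, was lower as well (8.84 ± 0.278 and 11.8 ± 0.569 FPKM, log2 difference −0.38, adjusted p = 0.00204), as were the helicase DHX9 (−0.31, adjusted p = 0.0113) and the feedback inhibitor SOCS1 (−0.31, adjusted p = 0.0362). TLR3, the endosomal receptor of double-stranded RNA, was higher, at 4.12 ± 0.152 against 3.19 ± 0.179 FPKM (log2 difference 0.29, adjusted p = 0.0109). The ubiquitin ligase RNF135 was higher with all libraries (0.40, adjusted p = 0.0303) and missed the threshold without control replicate 1 (adjusted p = 0.0854). The kinases JAK1, TYK2 and TBK1 had log2 differences from −0.03 to 0.04, with SE from 0.0436 to 0.0535 and adjusted p-values from 0.488 to 0.754.

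A further list of 51 interferon-stimulated genes in the table gave 18 higher genes and 4 lower genes, and 15 and 4 without control replicate 1. The shares were 35.3% and 7.84% with all libraries, beside 23.9% and 16.8% of the table, and 29.4% and 7.84% without control replicate 1, beside 19.2% and 14.1%. Because the list was chosen with earlier results of these data known, these shares describe the list and test nothing about it. The 6 genes with the largest changes, among those that passed the threshold with at least 1 FPKM and no overlap between groups, were all higher. SHISA5 had 25.3 ± 6.11 FPKM against 13.6 ± 0.581 FPKM (SD, n = 3; log2 difference 0.82, adjusted p = 0.00961). TRIM22, an antiviral ubiquitin ligase, rose from 11.8 ± 0.998 to 19.5 ± 0.258 FPKM (log2 difference 0.69, adjusted p = 0.000433), and PNPT1, a mitochondrial RNA-degrading enzyme, from 7.66 ± 0.925 to 12.7 ± 0.490 FPKM (0.67, adjusted p = 0.00146). CD274, an immune checkpoint ligand, rose from 0.916 ± 0.104 to 2.02 ± 0.0777 FPKM (0.66, adjusted p = 0.000456). TRAFD1, a negative regulator of innate signalling, rose by 0.65 and SLFN5 by 0.58 on the log2 scale (adjusted p = 0.000502 and 0.00165).

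The complement of the miR-204-5p seed was searched along the longest annotated 3′UTR per gene (GENCODE 29, GRCh38), as AAAGGGAA (8mer), AAAGGGA (7mer-m8) or AAGGGAA (7mer-A1). A match was found for 19 of the 59 genes (32.2%), against 27.1% of 14664 genes of the table with a 3′UTR. Of these 19 genes 3 were called lower and 2 higher, and of the 40 genes without a match 4 lower and 10 higher. Over all genes of the table, 27.0% of those with a match were lower and 16.4% higher, against 13.5% and 27.2% of those without. When control replicate 1 was left out, 8 of the 19 genes with a match were lower and 2 higher, and 10 of the 40 without a match were lower and 9 higher. The shares of lower genes were then 42.1% and 25.0% among the 59 genes and 23.5% and 10.9% in the table. The 3 genes that were lower with all libraries are shown with the match in capitals, followed by EPSTI1, which holds a match and was higher. All 4 matches lie within the transcript that the table lists.

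MAVS (8mer, exon 6, plus strand, site at chr20:3874507-3874514): tagtggaaaaAAAGGGAAggctctgggt
IFNAR1 (7mer-A1, exon 11, plus strand, site at chr21:33358039-33358045): ggatgtggagAAGGGAAaatacggaca
ADAR (7mer-A1, exon 15, minus strand, site at chr1:154583754-154583760): cagtgacaccAAGGGAAgttgactaag
EPSTI1 (7mer-m8, exon 11, minus strand, site at chr13:42886904-42886910): gacgtaggaaAAAGGGAtgctttctta

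An 8mer was found in MAVS and in SAMD9. The called genes with the largest decreases, OAS2 and OAS1, had no match. The median log2 difference was −0.03 for the 19 genes with a match and 0.01 for the 40 without, beside −0.03 and 0.06 for all genes of the table with and without one. Without control replicate 1 these medians were −0.10 and −0.01 for the 59 genes and −0.03 and 0.06 for the table. A match describes the sequence alone, and pairing with the mimic was not measured.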

How the data were processed

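RNA-seq of UM-SCC1 cells, 3 libraries each for miR-204-5p and control mimics, was made with a TruSeq RNA kit and Illumina sequencing. Per the labels and the submitters' processing notes the authors used HISAT2, StringTie and hg38, and they deposited FPKM for 14959 genes, each with 1 transcript. Versions, annotation release and strand setting are not given in the sources used here. The table also holds the authors' own log fold changes, p-values and false discovery rates from edgeR, which were not used. No counts were used, and the depth of 13100000 to 16400000 fragments was inferred from the smallest steps of FPKM. It was approximate, since 29.4 to 34.5% of low values came out whole within 0.02, against 3.00 to 3.27% at a typical step.

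The groups were compared on log2(FPKM + 1) with limma 3.58.1 (R 4.3.3; lmFit, eBayes with trend), without a filter on low values, and p-values were adjusted over all genes by Benjamini and Hochberg, with a threshold of 0.05. The script was tested on simulated data. The replicates are independent experiments by the labels. The numbers 1 to 3 were not taken as pairs, since same-numbered libraries did not deviate together. The 13 alternatives were a pseudocount of 0.1, a minimum mean of 1 FPKM, scaling to equal sums or medians, quantile normalization, no trend, the replicate block and leaving out each library. The members and lists were chosen with earlier results of these data known. Values per library are given for called genes with a mean of at least 1 FPKM and for the most and least abundant gene of each role. Further genes were given by library because their controls differed from each other or their call depended on control replicate 1. Among them are XAF1, OASL, MX1, BST2, IFI44, IFI6, ISG15 and RSAD2. From further lists up to 6 called genes without overlap and, whatever their values, JAK1, TYK2, TBK1 and TLR3 are named. Some items of the lists are not reported here. Sequences came from RefSeq and GENCODE 29.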

Additional observations from a re-analysis of the deposited data

How the results depend on the processing

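Of the 19 calls among the 59 genes, 13 were kept under all 13 alternatives: EPSTI1, PLSCR1, IFITM2, IFITM3, DTX3L, IRF1, IFNAR1, IFIH1, UBE2L6, OAS1, OAS2, DHX58 and MAVS. The 19 called genes and the 11 called without control mimics replicate 1 kept their direction under the alternatives run. The median log2 difference of the 59 genes, −0.01, lay near 0 and turned to 0.03 with a mean of at least 1 FPKM and to 0.01 without miR-204-5p mimics replicate 2. The number of lower genes, 7, became 12, 11 and 12 after scaling to equal sums, equal medians and quantile normalization, beside 11 higher genes in each case. Over all 14959 genes, 2520 lower genes became 2885, 2948 and 3026, and 3578 higher genes became 3080, 3106 and 3043. Leaving out each library gave 5 to 18 lower and 9 to 13 higher genes, with the 18 reached without control mimics replicate 1. Over all genes it gave 2045 to 2271 lower and 2876 to 3138 higher. For the further interferon-stimulated genes, 4 lower genes became 7, 8 and 7 under the 3 scalings. The median log2 difference of all genes went from 0.0318 to 0.0088, 0.0083 and −7.0e-05 under the same scalings, so the shift was not particular to this list. The cause was not tested. Same-numbered libraries had correlations of deviations of −0.0401, −0.021 and −0.108, so the numbers give no pairing, and with the replicate block 11 of the 59 genes were higher and 7 lower, and 2999 and 2097 of all genes. With 3 libraries per group and no counts, precision is limited by the spread between libraries, and for IFI44L, RSAD2 and CMPK2 by few fragments. These 3 genes have no value under the minimum mean of 1 FPKM.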
